A study of Mus musculus with 16 samples.

Results

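Amino acid transporter genes were followed in KPC1199 cells, a mouse pancreatic cancer line, after CRISPR targeting of Sin3b and after exposure to interferon-gamma (IFNγ). The members were all annotated features of the Slc1a, Slc3a, Slc6a, Slc7a, Slc36a, Slc38a and Slc43a families, taken by gene symbol, and 67 features carried such a symbol in both deposited tables, of 56980 features in the table of the IFNγ experiment and 55738 in the table of the untreated experiment. The Slc6a family gave 22 of them, Slc7a 16, Slc38a 11, Slc1a 7, Slc36a 6, Slc43a 3 and Slc3a 2. In all, 63 were carrier genes, and 4 were features annotated on the opposite strand of a carrier gene (Slc6a19os, Slc7a6os, Slc36a1os and Slc36a3os).

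The KPC1199 line came from a pancreatic tumour of a genetically engineered KPC mouse, whose tumour alleles are switched on by a Pdx-driven Cre, so all 16 libraries shared that background. The control cells carried sgCtrL, a guide that targets no mouse gene and is named lacZ in the deposited tables, and the targeted cells carried Sin3Bsg1. Both guides were delivered with Cas9 in the lentiCRISPR v2 vector under puromycin selection, and the sources used here do not say whether a line was a single clone. The untreated experiment held 2 libraries of each guide. In the IFNγ experiment, each guide had 3 libraries without IFNγ and 3 with IFNγ at 10 ng/ml for 24 h. All cells grew in DMEM with fetal bovine serum, a medium rich in amino acids.

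Amino acids cross the plasma and lysosomal membranes through several carrier families. In part of the Slc7a family, a light chain that forms the pore (such as Slc7a5 or Slc7a11) pairs with a heavy chain (Slc3a2 or Slc3a1) that brings it to the membrane, and the pair exchanges one amino acid for another. The cationic carriers of the Slc7a family, such as Slc7a1, are not among these light chains. The Slc1a family takes up glutamate or exchanges alanine, serine, cysteine and glutamine, the Slc6a and Slc38a families use the sodium gradient, and Slc36a and some Slc38a members work at the lysosome, where amino acids are sensed by mTORC1. Tumour cells depend on such carriers for glutamine, leucine, arginine and cystine. Sin3B is a scaffold of histone deacetylase complexes that repress transcription, and IFNγ is a cytokine that changes transcription through GAS elements in gene promoters.

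The promoters of 3 members are given because the counts of these genes changed in the comparisons that follow and because Slc7a11, with a pair of C/EBP-ATF elements, differs from the others in what the window holds. Each is the 250 bases before the RefSeq transcription start on GRCm38.p6, all on the minus strand, printed 5′ to 3′ along the gene. Capitals mark matches, on either strand, to the C/EBP-ATF element TGATGNAA, the GAS-like motif TTCNNNGAA, the ISRE-like motif GAAANNGAA or the E-box CACGTG. The windows lie at chr3:50443614-50443863 for Slc7a11, chr5:148392816-148393065 for Slc7a1 (the window of its 2 in the table that holds a capitalised match) and chr13:73692637-73692886 for Slc6a19.
Slc7a11: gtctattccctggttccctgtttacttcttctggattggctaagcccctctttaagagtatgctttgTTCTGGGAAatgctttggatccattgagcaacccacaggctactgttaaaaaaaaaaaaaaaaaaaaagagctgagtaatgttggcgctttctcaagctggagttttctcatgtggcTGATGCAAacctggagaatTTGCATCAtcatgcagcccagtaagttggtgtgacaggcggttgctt
Slc7a1: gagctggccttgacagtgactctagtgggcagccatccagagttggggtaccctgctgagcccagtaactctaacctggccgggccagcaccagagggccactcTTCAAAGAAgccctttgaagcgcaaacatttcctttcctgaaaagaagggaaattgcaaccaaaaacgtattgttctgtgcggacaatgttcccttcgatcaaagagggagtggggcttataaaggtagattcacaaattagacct
Slc6a19: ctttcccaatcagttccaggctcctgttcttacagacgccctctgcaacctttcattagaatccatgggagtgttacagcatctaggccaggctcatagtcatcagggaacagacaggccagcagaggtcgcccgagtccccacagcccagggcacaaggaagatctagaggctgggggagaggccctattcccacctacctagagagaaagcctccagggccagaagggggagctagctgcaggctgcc
The Slc7a11 window held C/EBP-ATF matches starting 66 and 47 bases before the start and a GAS-like match at 183, the Slc7a1 window a GAS-like match at 146, and the Slc6a19 window no match to the 4 motifs. The other Slc7a1 window, at chr5:148399905-148400154, lies further upstream on the minus strand. It held no match to the 4 motifs, so the GAS-like match belongs only to the window printed. The core of the antioxidant response element, TGANNNNGC, also matched the Slc7a11 window at 97 and at 45, the latter overlapping a C/EBP-ATF match. RefSeq gave windows for 49 of the 67 members, 70 windows in all. Of these 70, 4 held the C/EBP-ATF element, 5 the GAS-like motif, 4 the ISRE-like motif, 9 the E-box and 35 the antioxidant core. Among all 32851 promoter windows of the same length the shares were 3.45%, 7.02%, 7.13%, 6.02% and 35.2%. A match describes the letters of the window and is no evidence of binding.

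Libraries of the untreated experiment held 29683181 to 32311721 estimated counts and those of the IFNγ experiment 18128055 to 27056903. Sin3b itself, which checks the guide labels, stood at 86.0 ± 3.66 CPM (counts scaled to library size; mean ± SD, n = 2) in untreated sgCtrL and 35.3 ± 1.71 (n = 2) in untreated Sin3Bsg1, and the log2 difference was -1.28 there, -1.24 without IFNγ and -1.22 with IFNγ. None of the 6 epithelial markers (Krt7, Krt8, Krt18, Krt19, Epcam and Cdh1) was at or under the floor of 3 counts per library throughout any group. Their summed level was at least 2990 CPM in every library. In all groups, 6 of the 7 leukocyte markers (Ptprc, Cd3e, Cd8a, Adgre1, Csf1r and Itgam) and the endothelial markers Cdh5 and Kdr were at or under that floor. Of the 7 fibroblast markers, Lum was at or under it in all groups, and Dcn and Thy1 in every group of the IFNγ experiment. Replicate 1 of sgCtrL with IFNγ stood apart from its 2 replicates (mean chi-square per gene 23.8 and 20.2, against 4.15 between the others), so results that rest on it are given with and without it. Nothing in the labels says that replicates were separate cultures, so the p-values measure the spread between these libraries, which may be technical.

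Of the 67 members, 27 had enough counts for a test in untreated cells, and 32 had enough in the experiment with IFNγ. Tested in both were 25, in either 34 and in neither 33. At or under the floor in every library were 29 members in untreated cells and 30 in the other experiment, and 15 and 20 of these were at 0 throughout. None of the members left untested had a mean above 0.313 CPM. The untested members include most of the Slc6a family, which holds the carriers of neurotransmitters, with 4 of 22 tested in the untreated cells and 5 of 22 in the IFNγ experiment. Slc1a1, a neuronal and epithelial glutamate carrier, was at or under the floor in all 16 libraries.

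Per transcript length, in TPM (counts divided by transcript length and scaled to the library), the levels spanned a wide range. In untreated sgCtrL, the taurine carrier Slc6a6 had the highest level (201 ± 0.44 TPM, n = 2), followed by the glutamine and alanine carrier Slc38a2 (192 ± 3.75), the heavy chain Slc3a2 (123 ± 0.97), Slc38a10 (86.4 ± 3.88) and the leucine carrier Slc7a5 (64.2 ± 2.96). In sgCtrL without IFNγ, Slc38a2 came first at 441.5 ± 4.03 TPM (n = 3), ahead of Slc6a6 (224 ± 3.27) and Slc3a2 (161 ± 3.61). The tables were made separately, so no test joins them. Further down the order in these cells, the glutamine exchanger Slc1a5 (46.3 ± 4.24 TPM) and Slc38a6 (45.5 ± 3.45) did not differ beyond their spread. Slc7a15 was at 5.24 to 6.96 CPM in the 4 untreated libraries and at 0 to 3 counts in the 12 libraries of the other experiment.

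**Figure D1:**
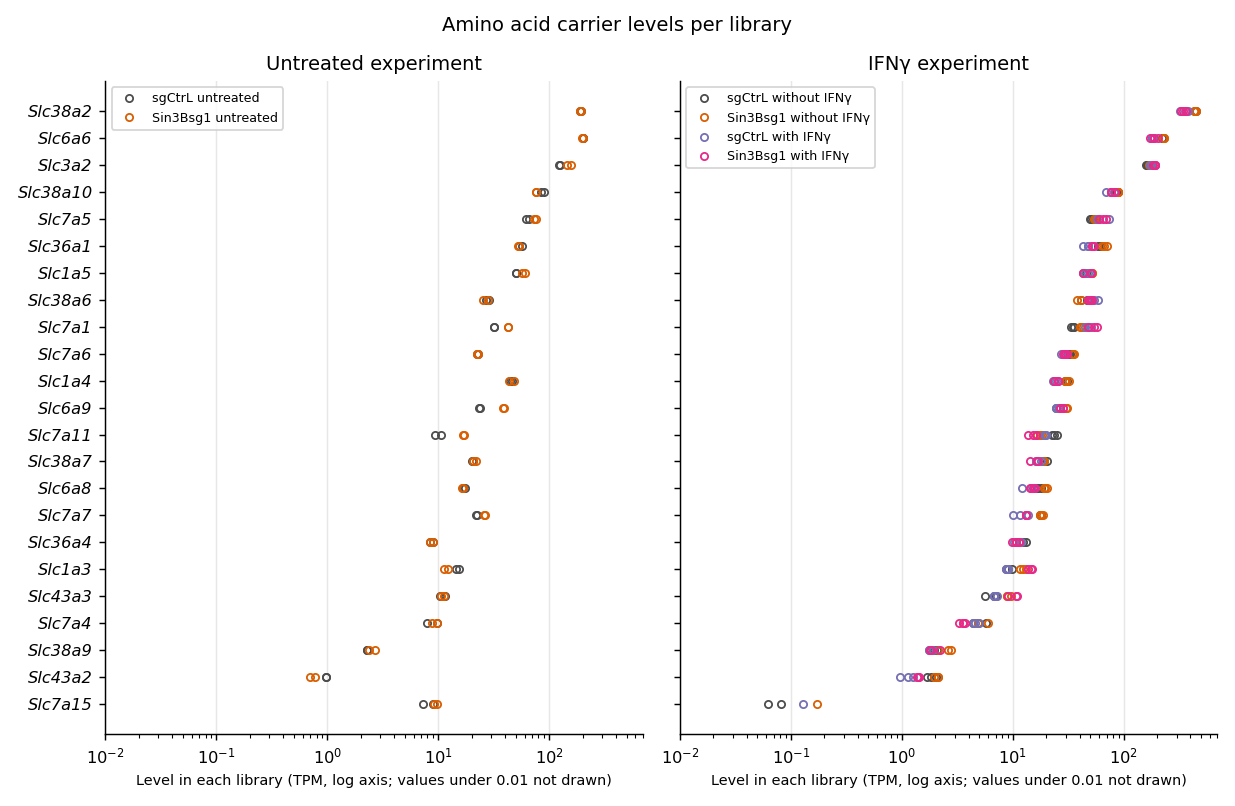
Level of 23 carrier genes in TPM (log axis), 1 point per library, coloured by group, for the carriers with a mean of at least 1 TPM in either experiment; values under 0.01 TPM are not drawn. Slc6a6, Slc38a2 and Slc3a2 lie at the top in both experiments, and Slc7a15 is high only in the untreated libraries.

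The first comparison asked how Sin3b targeting changed these genes in untreated cells. Light chains, their heavy chain, the arginine carrier and the glycine carrier were higher in Sin3Bsg1: 7 of the 27 tested members rose (25.9%) and 2 fell (7.41%), where 15.1% of all 14589 genes tested rose and 16% fell. The median log2 change was 0.07 over the members and 0.00 over all genes. In bulk RNA, fewer cells of a type and less RNA per cell cannot be told apart. The 6 epithelial markers all rose in the same comparison, from a summed 4600 to 4625 CPM in sgCtrL to 6195 to 6253 in Sin3Bsg1, and the 7 fibroblast markers summed to 117.5 to 118.5 against 36.1 to 39.2 CPM; their part in the members' changes was not tested.

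Slc7a11, the cystine and glutamate exchanger that supplies cysteine for glutathione, lies at chr3:49846975-50398070 on the minus strand of GRCm39. It stood at 47.1 and 42.4 CPM in the untreated sgCtrL libraries and at 75.6 and 75.9 in Sin3Bsg1. Both Sin3Bsg1 libraries were above both controls, a log2 difference of 0.76 ± 0.050 (SE; edgeR adjusted p = 6.37e-09). Its heavy chain Slc3a2 (chr19:8684245-8701108, minus strand) rose from 168 and 170.1 to 199 and 215 CPM, a log2 difference of 0.29 ± 0.033 (edgeR adjusted p = 4.26e-06). The leucine carrier Slc7a5 (chr8:122607884-122634433, minus strand), which shares this heavy chain, rose from 106 and 114 to 129.5 and 125.5 CPM, by 0.21 ± 0.037 (edgeR adjusted p = 0.000307). Slc7a7, the arginine and leucine exchanger, was at 22.2 and 22.1 CPM in sgCtrL and 26.3 and 25.7 in Sin3Bsg1. Its log2 difference of 0.23 ± 0.070 passed the test (edgeR adjusted p = 0.0182), but the call was lost by DESeq2 (0.23) and without sgCtrL replicate 1 (0.24), sgCtrL replicate 2 (0.23) or Sin3Bsg1 replicate 1 (0.22). Of the 12 heteromeric exchanger chains, 6 could be tested in untreated cells, of which these 4 rose and none fell, with a median of 0.23. The 4 are 66.7% of the 6, where 15.1% of all genes rose and 16% fell. By DESeq2, which lost Slc7a7, 3 rose. Some 15.9% of the exonic bases of Slc3a2 lie under Snhg1 and 10.4% of those of Slc7a7 under Oxa1l on the opposite strand, and the strand setting of the counting is not given in the sources used here.

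Slc7a1, the main carrier of arginine and lysine (chr5:148264220-148336848, minus strand), stood at 112 and 110.3 CPM in sgCtrL and 149.8 and 148 in Sin3Bsg1. The libraries did not overlap, and the log2 difference was 0.42 ± 0.031 (edgeR adjusted p = 3.40e-08). Slc6a9, the glycine carrier GlyT1 (chr4:117691703-117732395, plus strand), rose from 23.8 and 24.4 to 39.9 and 40.3 CPM, the second-largest change among the members named, at 0.73 ± 0.061 (edgeR adjusted p = 1.07e-07). Ccdc24 lies on the opposite strand under 23.5% of its exonic bases. Slc1a5, the glutamine exchanger ASCT2, rose from 66.9 and 68.0 to 82.1 and 76.4 CPM, by 0.23 ± 0.043 (edgeR adjusted p = 0.00053). Its relative Slc1a4 did not pass the test at 85.5 and 89.3 against 84.0 and 91.5 CPM, and the groups overlapped.

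Among the members that fell was Slc1a3, the glutamate and aspartate carrier GLAST (chr15:8663604-8741595, minus strand). It stood at 30.9 and 29.6 CPM in untreated sgCtrL and at 23.1 and 24.7 in Sin3Bsg1, both below both controls, a log2 difference of -0.34 ± 0.070 (edgeR adjusted p = 0.00125). The other was Slc38a10, named after its values were seen, which went from 186 and 199 to 171 and 168 CPM (log2 difference -0.18 ± 0.032). The most abundant carriers did not pass: Slc6a6 was at 605 and 605 against 609 and 596 CPM, and Slc38a2 at 442 and 431 against 435.0 and 435.0. Slc36a1, the lysosomal proton-coupled carrier, was at 50.3 and 54.1 against 50.7 and 49.6 CPM, and Slc38a9, the lysosomal arginine sensor of mTORC1, at 9.85 and 9.83 against 11.6 and 10.2.

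**Figure D2:**
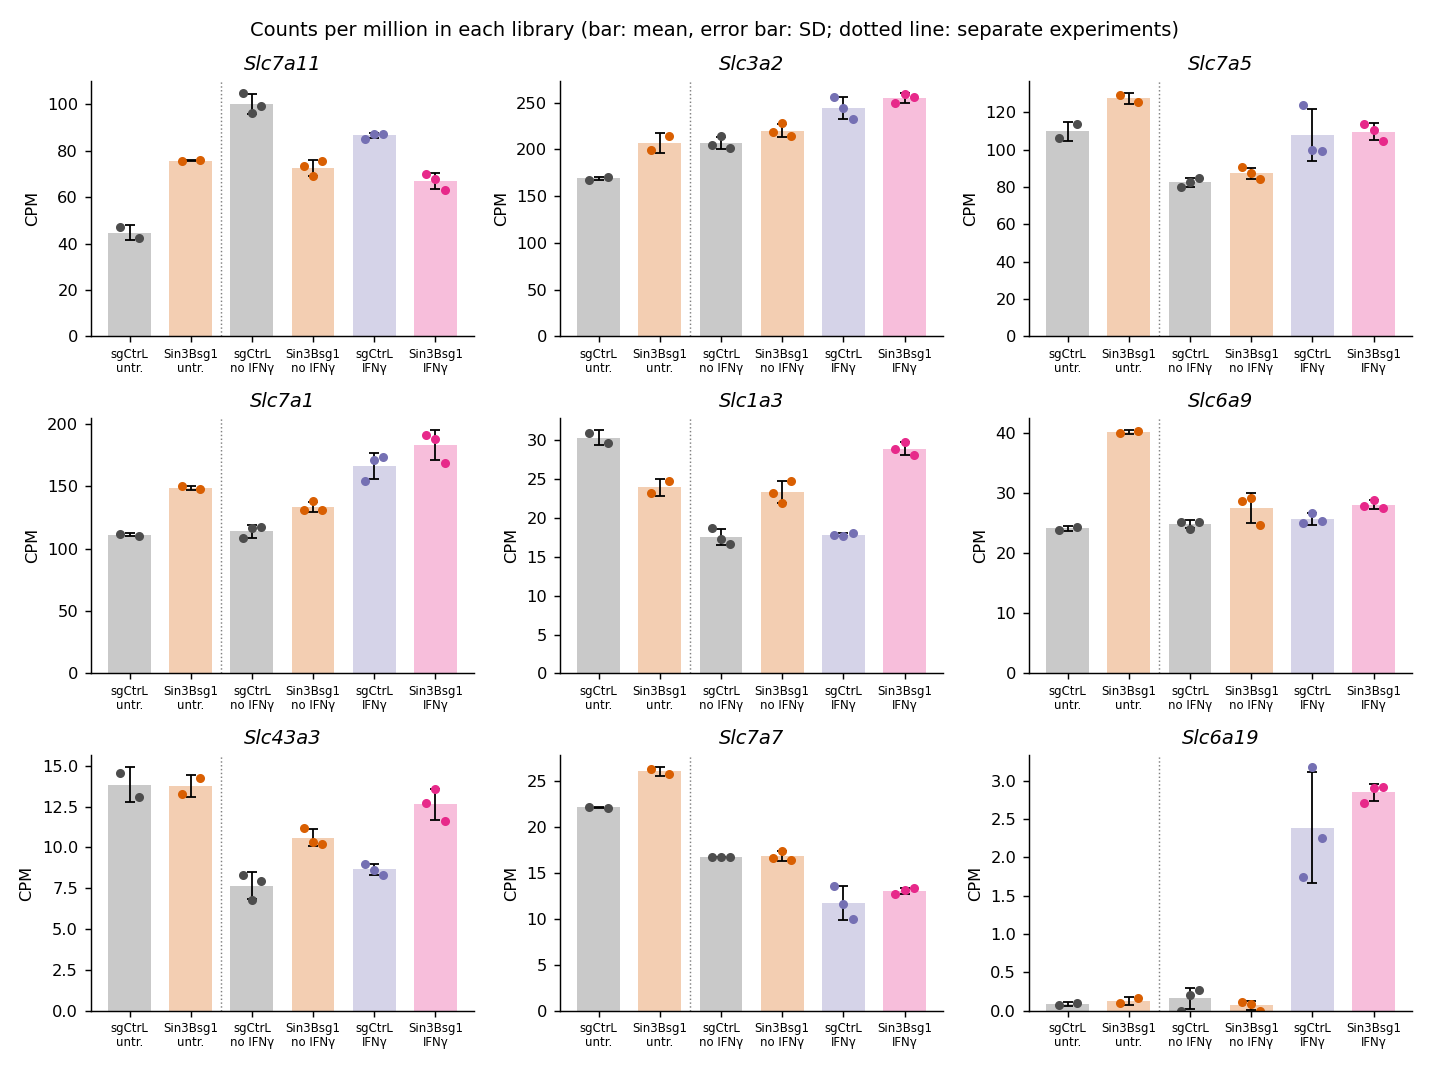
CPM of 9 members in each library (points), with the group mean (bar) and SD (error bar), for the 4 untreated libraries and the 12 libraries of the IFNγ experiment. Slc7a11 is higher with Sin3Bsg1 in the untreated experiment and lower with Sin3Bsg1 in the other, and Slc6a19 leaves the floor with IFNγ.

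The same guides were compared again in the cells without IFNγ of the other experiment, which share no library with the untreated ones. There 4 of the 32 tested members were higher with Sin3Bsg1 (12.5%) and 1 was lower (3.12%), where 7.89% of 14913 genes rose and 9.33% fell. The median was 0.09 over the members and -0.01 over all genes. The count rests on the fit and on single libraries: it was 8 without replicate 1 of sgCtrL with IFNγ, 3 without replicate 2 of Sin3Bsg1 without IFNγ, and 10 (8 up, 2 down) when the 2 groups compared were fitted alone. Epithelial markers summed to 2990 to 3028 CPM in sgCtrL and 3215 to 3317 in Sin3Bsg1, with 3 of 6 called higher. The 7 fibroblast markers summed to 271.9 to 280.5 against 252.3 to 264.0 CPM. Of the 3 that could be tested, Col1a1 and Pdgfrb were called higher and Pdgfra lower with Sin3Bsg1. The part of these markers in the result was not tested.

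Of the 25 members tested in both experiments, 9 were called in untreated cells and 4 in the cells without IFNγ. Slc7a1 alone was called in the same direction in both (11.1% of the first list and 25.0% of the second), a match lost with its call without replicate 1 of sgCtrL without IFNγ (0.19) or replicate 2 of Sin3Bsg1 without IFNγ (0.20), and Slc1a3 and Slc7a11 were called in opposite directions (22.2% and 50%). For Slc7a11 the libraries without IFNγ read 105, 96.2 and 99.3 CPM in sgCtrL and 73.5, 69.0 and 75.5 in Sin3Bsg1. All 3 Sin3Bsg1 libraries were below all 3 controls, a log2 difference of -0.46 ± 0.052 (edgeR adjusted p = 1.30e-05), where the untreated difference was 0.76. Slc1a3 read 18.7, 17.3 and 16.6 CPM in sgCtrL and 23.2, 21.9 and 24.7 in Sin3Bsg1, again without overlap, a difference of 0.41 ± 0.068 (edgeR adjusted p = 0.000466) against -0.34 in untreated cells. No test joins the experiments, so the difference between them was not tested. The overlap of calls over all genes is not given here. These counts therefore do not show whether a change of direction between the experiments is particular to the carriers.

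Slc7a1 stood at 108, 116 and 118 CPM in sgCtrL and at 131, 138 and 131 in Sin3Bsg1 without IFNγ. The log2 difference of 0.23 ± 0.060 passed (edgeR adjusted p = 0.0148), but not without replicate 1 of sgCtrL without IFNγ (0.19) or replicate 2 of Sin3Bsg1 without IFNγ (0.20). Slc43a3, a carrier of purine bases (chr2:84766862-84788865, plus strand), read 8.30, 6.76 and 7.91 CPM in sgCtrL and 11.2, 10.4 and 10.2 in Sin3Bsg1. The groups did not overlap, and the difference was 0.47 ± 0.10 (edgeR adjusted p = 0.00387), while the untreated libraries overlapped at 14.6 and 13.1 against 13.3 and 14.2 CPM. Slc3a1, the heavy chain of the cystine and dibasic amino acid exchanger, was near the limit of detection, with 10, 11 and 5 counts in sgCtrL and 34, 30 and 23 in Sin3Bsg1 without IFNγ. Its log2 difference of 1.49 ± 0.38 passed (edgeR adjusted p = 0.0129) but was not called without replicate 3 of sgCtrL (1.26) or without replicate 1 (1.43) or 2 (1.42) of Sin3Bsg1. Slc3a1 was named after its values were seen, and it shares 26.8% of its exonic bases with Prepl on the opposite strand.

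Several members called in untreated cells did not pass here. Slc3a2 was at 205, 214 and 202 CPM in sgCtrL and 218, 228 and 214 in Sin3Bsg1, Slc7a5 at 79.9, 83.0 and 84.8 against 90.5, 87.4 and 84.5, and Slc6a9 at 25.2, 24.0 and 25.2 against 28.6, 29.1 and 24.7. The difference of Slc6a9 was 0.15, and 0.22 with a call without replicate 3 of Sin3Bsg1 without IFNγ. Slc1a5 overlapped between groups, at 63.7, 54.4 and 57.1 against 64.2, 64.0 and 62.4 CPM. Slc38a9 read 8.30, 7.93 and 7.86 CPM in sgCtrL and 8.57, 11.1 and 10.3 in Sin3Bsg1; its difference of 0.32 passed without replicate 1 of Sin3Bsg1 without IFNγ (0.42), without replicate 1 of sgCtrL with IFNγ (0.32) and with the 2 groups fitted alone (0.32). Slc7a2, the arginine carrier of macrophages and liver, had 26, 46 and 21 counts in sgCtrL and 14, 8 and 29 in Sin3Bsg1, a log2 difference of -1.07 ± 0.41 that was called only with no filter on low counts (-1.07) or without replicate 3 of Sin3Bsg1 without IFNγ (-1.74). The system A carrier Slc38a1 was present at traces only, with group means between 0.17 and 0.37 CPM.

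With IFNγ present, 3 of the 32 members were higher in Sin3Bsg1 (9.38%) and 1 was lower (3.12%), where 8.62% of genes rose and 7.90% fell. The median was 0.06 over the members and 0.00 over all genes. Of the 6 epithelial markers 5 were higher in Sin3Bsg1 (4181 to 4433 CPM in sum, against 3165 to 3692). Of the fibroblast markers, Col1a1 and Pdgfrb were called higher and Pdgfra lower (177.7 to 192.1 CPM in sum over 7, against 190.3 to 192.3). The part of these markers in the members' differences was not tested. Slc1a3 read 17.8, 17.6 and 18.1 CPM in sgCtrL and 28.9, 29.7 and 28.0 in Sin3Bsg1, its widest gap between the guides, a log2 difference of 0.70 ± 0.066 (edgeR adjusted p = 2.26e-06). Slc43a3 read 9.0, 8.61 and 8.33 against 12.7, 13.6 and 11.6 CPM, a difference of 0.55 ± 0.098 (edgeR adjusted p = 0.000995). Neither gene's groups overlapped. Slc7a11 was again lower with Sin3Bsg1, at 85.2, 87.3 and 87.2 CPM in sgCtrL against 69.8, 67.8 and 63.0, by -0.37 ± 0.053 (edgeR adjusted p = 0.00012). Slc36a1 was at 40.5, 45.2 and 44.2 against 48.7, 48.6 and 50.3 CPM; its difference of 0.18 ± 0.057 passed (edgeR adjusted p = 0.0367) but was lost in DESeq2 (0.18) and in 8 of the 12 fits that leave out a library, with 0.15 without replicate 1 of sgCtrL with IFNγ and up to 0.20 in the rest (replicate 3 of that group, replicates 2 and 3 of sgCtrL without IFNγ, replicate 1 of Sin3Bsg1 without IFNγ and each of the 3 of Sin3Bsg1 with IFNγ). Without that same library the member count was 5 (4 up, 1 down), and Slc7a5 (0.15 against 0.03) and Slc7a7 (0.28 against 0.16) passed the test.

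**Figure D3:**
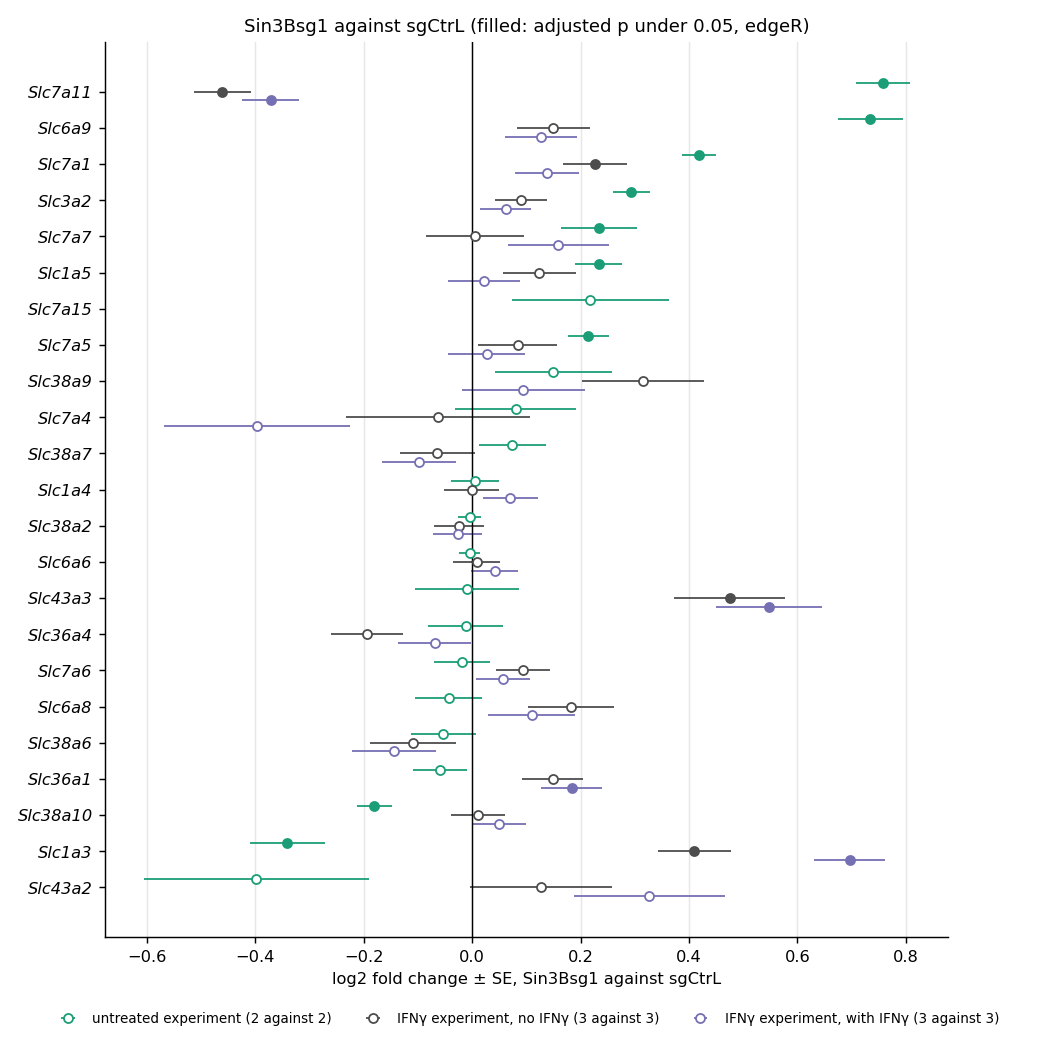
Log2 difference of Sin3Bsg1 from sgCtrL, with its SE, for the carrier genes tested in the untreated experiment with a mean of at least 1 CPM in either experiment, in untreated cells, without IFNγ and with IFNγ; filled points passed an adjusted p of 0.05. Slc7a11 lies at 0.76 in untreated cells and at -0.46 and -0.37 in the IFNγ experiment, and Slc1a3 lies at -0.34, 0.41 and 0.70.

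The IFNγ experiment then asked what IFNγ did to the carriers under each guide. Under both guides, the arginine carrier Slc7a1, the heavy chain Slc3a2, the leucine carrier Slc7a5, Slc38a6 and the neutral amino acid carrier Slc6a19 rose, and Slc38a2, Slc6a6, Slc1a4, Slc36a1, Slc43a2 and Slc7a7 fell. In sgCtrL, 6 of 32 members rose (18.8%) and 7 fell (21.9%), where 15.7% of genes rose and 14.5% fell. In Sin3Bsg1, 6 rose (18.8%) and 9 fell (28.1%), where 16.1% of genes rose and 12.3% fell. The member medians were -0.10 and -0.07, against -0.00062 and 0.01 over all genes. The comparisons in the 2 guides share no library. In both, 11 members (5 up, 6 down) were called in the same direction, 84.6% of the sgCtrL list and 73.3% of the Sin3Bsg1 list. All these counts of members that rose include Slc6a19, which passed the filter on low counts only through the groups with IFNγ. The same overlap over all genes is not given here. Without replicate 1 of sgCtrL with IFNγ, the counts were 14 (5 up, 9 down) and 15 (6 up, 9 down). Each of these comparisons shares libraries with the comparisons of the guides. The 3 fibroblast markers that could be tested (Col1a1, Pdgfra and Pdgfrb) fell under both guides, and the sum of the 7 went from 271.9 to 280.5 CPM without IFNγ to 190.3 to 192.3 with it in sgCtrL. Of the 6 epithelial markers, Krt18 rose and Cdh1, Krt19 and Krt7 fell in sgCtrL, and Krt18 and Krt8 rose and Krt19 and Krt7 fell in Sin3Bsg1. The acinar enzyme Cela1 fell by -0.77 and -0.85 on the log2 scale, while the acinar markers Cpa1 and Prss1 were at or under the floor. The part of these markers in the members' changes was not tested.

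Slc6a19, the carrier B0AT1 known for uptake of neutral amino acids in gut and kidney (chr13:73827860-73852984, minus strand), had 0, 5 and 5 counts in sgCtrL without IFNγ and 35, 84 and 50 with IFNγ. In Sin3Bsg1 it had 3, 2 and 0 counts without IFNγ and 65, 72 and 68 with IFNγ. Every library with IFNγ was above every library without it, and the 4 untreated libraries held 2 to 5 counts. In Sin3Bsg1 the level with IFNγ was at least 21.8-fold higher, taken against the floor of 3 counts per library. Slc6a19 passed the filter on low counts only through the groups with IFNγ, and it was not tested in the untreated experiment, so its call under both guides is given as a description. The fitted log2 difference in sgCtrL was 3.84 ± 0.51, a value that depends on the prior count. The interaction of guide and IFNγ was not called (1.42, edgeR adjusted p = 0.984). The absolute level stayed low, at 1.74, 3.17 and 2.25 CPM in sgCtrL with IFNγ and 2.72, 2.91 and 2.92 in Sin3Bsg1 with IFNγ.

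Slc7a1 rose from 108, 116 and 118 CPM to 154, 171 and 174 in sgCtrL, a log2 change of 0.54 ± 0.060 (edgeR adjusted p = 3.54e-06). In Sin3Bsg1 it rose from 131, 138 and 131 to 191, 188 and 169 CPM, by 0.45 ± 0.059 (edgeR adjusted p = 2.17e-05). With and without IFNγ did not overlap under either guide. Slc3a2 reached 256, 245 and 232 CPM in sgCtrL with IFNγ (0.24 ± 0.047, edgeR adjusted p = 0.00117) and 249, 259 and 257 in Sin3Bsg1 with IFNγ (0.21 ± 0.047, edgeR adjusted p = 0.00292). Its light chain Slc7a5 reached 124, 99.9 and 99.5 CPM in sgCtrL with IFNγ, where the library that stands apart is the highest of the 3. The log2 change was 0.38 ± 0.072 with that library (edgeR adjusted p = 0.000789) and 0.26 without it. In Sin3Bsg1 Slc7a5 reached 114, 111 and 105 CPM, a change of 0.33 ± 0.071 (edgeR adjusted p = 0.0025). Slc38a6, named after its values were seen, rose by 0.34 ± 0.079 in sgCtrL and 0.31 ± 0.078 in Sin3Bsg1.

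**Figure D4:**
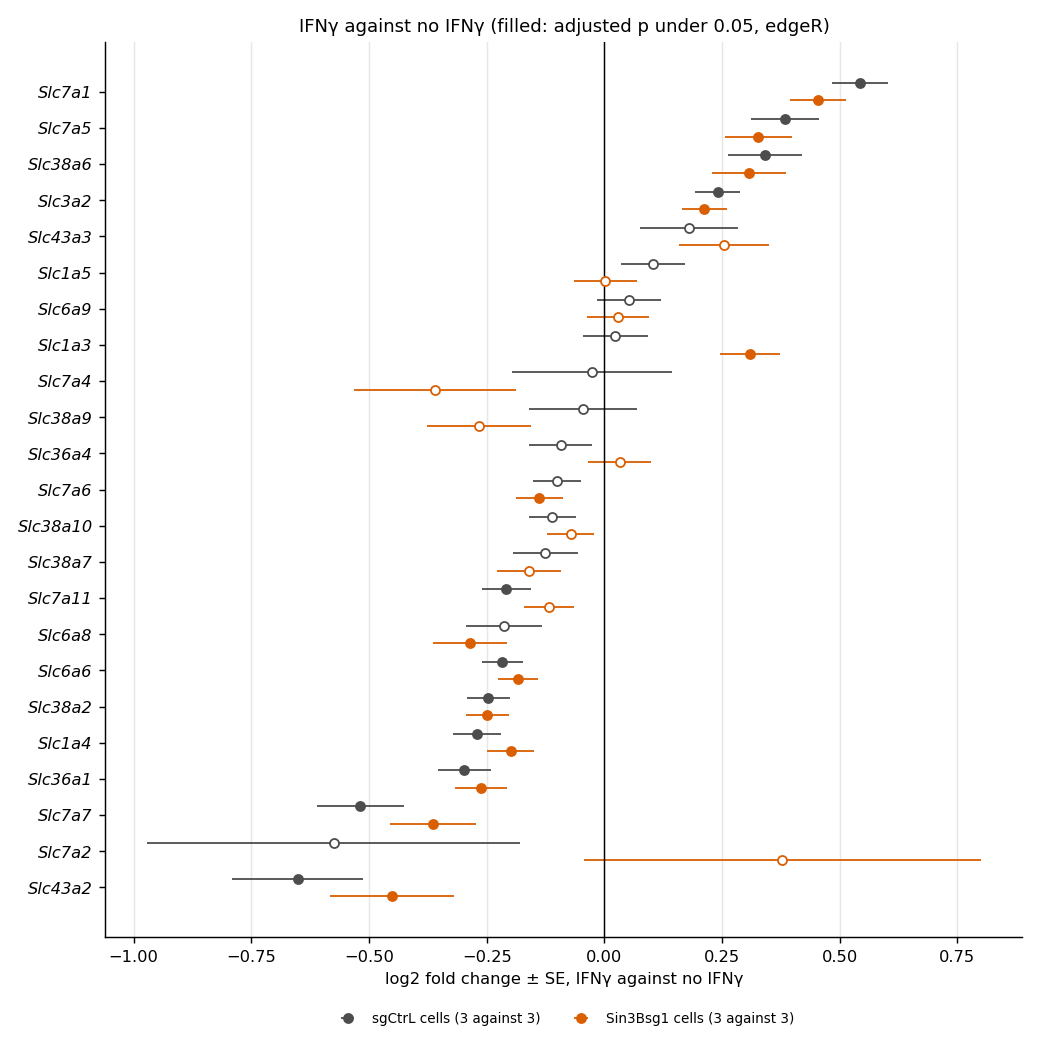
Log2 change with IFNγ, with its SE, in sgCtrL and in Sin3Bsg1, for the carrier genes with a mean of at least 1 CPM in the IFNγ experiment; filled points passed an adjusted p of 0.05, and Slc6a19 is left out because its libraries without IFNγ are at or near the floor. Slc7a1 has the highest values, at 0.54 and 0.45, and Slc43a2 reaches -0.65 in sgCtrL.

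Among the members that fell was Slc38a2, which takes up glutamine and alanine and had the highest level of the members in this experiment. It went from 938, 940.4 and 939 CPM to 844, 739.6 and 792 in sgCtrL, by -0.25 ± 0.046 (edgeR adjusted p = 0.000683). In Sin3Bsg1 it went from 900.1, 932 and 938 to 794, 776 and 761 CPM, also -0.25 ± 0.046 (edgeR adjusted p = 0.000595). Slc6a6, the taurine carrier, read 633, 629 and 635 CPM without IFNγ and 533, 547 and 553 with it in sgCtrL, and 642, 641 and 625 against 589, 563 and 528 in Sin3Bsg1. Its changes were -0.22 ± 0.043 (edgeR adjusted p = 0.00121) and -0.18 ± 0.043 (edgeR adjusted p = 0.00413). For neither of these genes did libraries with IFNγ overlap those without it. Slc36a1 fell from 54.5, 52.5 and 52.8 to 40.5, 45.2 and 44.2 CPM in sgCtrL and from 58.8, 62.6 and 55.8 to 48.7, 48.6 and 50.3 in Sin3Bsg1, with log2 changes of -0.30 ± 0.057 and -0.26 ± 0.056. Slc1a4, a carrier of alanine and serine, fell from 53.1, 54.7 and 54.6 to 45.9, 45.2 and 43.5 CPM in sgCtrL (-0.27 ± 0.051) and from 53.2, 57.0 and 52.1 to 46.8, 48.5 and 45.9 in Sin3Bsg1 (-0.20 ± 0.050).

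Slc7a7 fell from 16.8, 16.7 and 16.7 CPM to 13.6, 11.6 and 9.96 in sgCtrL, a change of -0.52 ± 0.093 (edgeR adjusted p = 0.000524), and from 16.6, 17.4 and 16.3 to 12.7, 13.2 and 13.3 in Sin3Bsg1, a change of -0.36 ± 0.090 (edgeR adjusted p = 0.00632). Slc43a2, the leucine and phenylalanine carrier LAT4, fell from 5.77, 6.43 and 5.24 to 4.13, 3.85 and 3.15 CPM in sgCtrL, by -0.65 ± 0.14 (edgeR adjusted p = 0.00204). In Sin3Bsg1 it went from 6.55, 6.57 and 5.98 to 4.59, 4.72 and 4.64 CPM. That change of -0.45 ± 0.13 passed (edgeR adjusted p = 0.0172) but not without replicate 1 (-0.43) or replicate 2 (-0.43) of Sin3Bsg1 without IFNγ. Gm45606 lies on the opposite strand under 17.8% of the exonic bases of Slc43a2. The light chain of the cystine exchanger, Slc7a11, fell in sgCtrL by -0.21 ± 0.052 (edgeR adjusted p = 0.00665). In Sin3Bsg1 its change of -0.12 ± 0.053 did not pass, and it passed only without replicate 1 of Sin3Bsg1 with IFNγ (-0.18) or with at least 10 counts asked of every library (-0.14).

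Slc1a3 showed the opposite split. In sgCtrL it overlapped, at 18.7, 17.3 and 16.6 CPM without IFNγ and 17.8, 17.6 and 18.1 with it, a change of 0.02. In Sin3Bsg1 it rose from 23.2, 21.9 and 24.7 to 28.9, 29.7 and 28.0 CPM, by 0.31 ± 0.064 (edgeR adjusted p = 0.00162). The test of the difference itself, the interaction of guide and IFNγ, gave 0.29 (edgeR adjusted p = 0.673), so IFNγ was not shown to act differently on Slc1a3 under the 2 guides. Slc3a1 was also called in Sin3Bsg1, going from 34, 30 and 23 to 9, 5 and 11 counts (-1.77 ± 0.38, edgeR adjusted p = 0.0024), where sgCtrL had 10, 11 and 5 counts without IFNγ and 7, 7 and 8 with it. None of the 32 members passed the interaction in edgeR or in DESeq2, and 2 (Slc1a3 and Slc3a1) had an unadjusted p under 0.05. Of all 14913 genes, 17 passed the interaction in edgeR (0.114%) and 32 in DESeq2.

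Calls near the threshold were named after their values were seen. The creatine carrier Slc6a8 fell in Sin3Bsg1 by -0.29 ± 0.078, a call lost without replicate 2 of Sin3Bsg1 without IFNγ (-0.26), and its change of -0.21 in sgCtrL passed without replicate 1 (-0.29) or 2 (-0.26) of sgCtrL with IFNγ. The exchanger chain Slc7a6 was called in Sin3Bsg1 at -0.14 ± 0.050 (edgeR adjusted p = 0.0486). The feature Slc7a6os, which overlaps Prmt7 over 18.5% of its exonic bases, was called in sgCtrL at 0.17 ± 0.060 (edgeR adjusted p = 0.0391). Each of these last calls was lost in most of the 12 fits that leave out a library, with values of -0.14 to -0.13 for Slc7a6 and 0.15 to 0.18 for Slc7a6os where lost. They were lost for Slc7a6 without any 1 of the 6 libraries without IFNγ or replicate 2 of Sin3Bsg1 with IFNγ. For Slc7a6os the libraries were any 1 of the 6 of sgCtrL and replicates 1 and 2 of Sin3Bsg1 with IFNγ.

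By role, the cationic carriers were represented among the calls by Slc7a1 alone, which was called in 4 of the 5 comparisons. Of the 6 heteromeric exchanger chains tested in each experiment, 2 rose and 2 fell with IFNγ in sgCtrL and 2 rose and 3 fell in Sin3Bsg1, so the chains did not move one way. The 4 tested Slc1a carriers gave 1 call in each direction in untreated cells (Slc1a5 up, Slc1a3 down), 25.0% each against 15.1% and 16% of all genes. With IFNγ, 1 fell in sgCtrL (Slc1a4, 25.0% against 14.5%). In Sin3Bsg1 1 rose and 1 fell (Slc1a3 and Slc1a4, 25.0% each against 16.1% and 12.3%).

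A list of 24 genes that cells switch on through ATF4 when amino acids run short was set beside the carriers. It includes the transcription factor Atf4, the asparagine synthetase Asns and the glutathione-degrading enzyme Chac1. Whether the list and the carriers changed through a common cause was not tested. In untreated cells 18 of the 24 rose with Sin3Bsg1 and 3 fell, with a median of 0.33 (16 and 3 by DESeq2). These are 75.0% and 12.5% of the list, where 15.1% of all genes rose and 16% fell. Asns rose from a mean of 72.0 to 141.5 CPM (log2 difference 0.97 ± 0.034), Trib3, a pseudokinase, by 1.07 ± 0.065, Chac1 by 1.32 ± 0.14 and Atf4 by 0.45 ± 0.023. Cebpb, Cbs and Vldlr fell, by -0.54, -0.70 and -0.23 on the log2 scale. In the cells without IFNγ 3 of the 24 rose with Sin3Bsg1 (12.5%, against 7.89% of all genes) and 1 fell (4.17% against 9.33%), with a median of 0.06, and Asns differed by 0.31 ± 0.071. Without replicate 1 of sgCtrL with IFNγ, which enters the shared fit, these counts were 7 and 3. With IFNγ present, 5 rose and 2 fell (9 and 2 without that library), 20.8% and 8.33% of the list against 8.62% and 7.90% of all genes.

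With IFNγ, 13 of the 24 rose and 3 fell in sgCtrL, with a median of 0.31, and 14 rose and 2 fell in Sin3Bsg1, with a median of 0.27. In sgCtrL these were 54.2% and 12.5% of the list, against 15.7% and 14.5% of all genes, and in Sin3Bsg1 58.3% and 8.33%, against 16.1% and 12.3%. Without replicate 1 of sgCtrL with IFNγ they were 11 and 3 (median 0.22) and 15 and 2. Chac1 rose by 1.72 ± 0.20 in sgCtrL and 2.13 ± 0.19 in Sin3Bsg1, Trib3 by 1.23 ± 0.12 and 1.21 ± 0.12, Asns by 0.65 ± 0.071 and 0.46 ± 0.069, and Atf4 by 0.31 ± 0.046 and 0.34 ± 0.046. Ddit4, an inhibitor of mTORC1, and Stc2 fell under both guides.

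**Figure D5:**
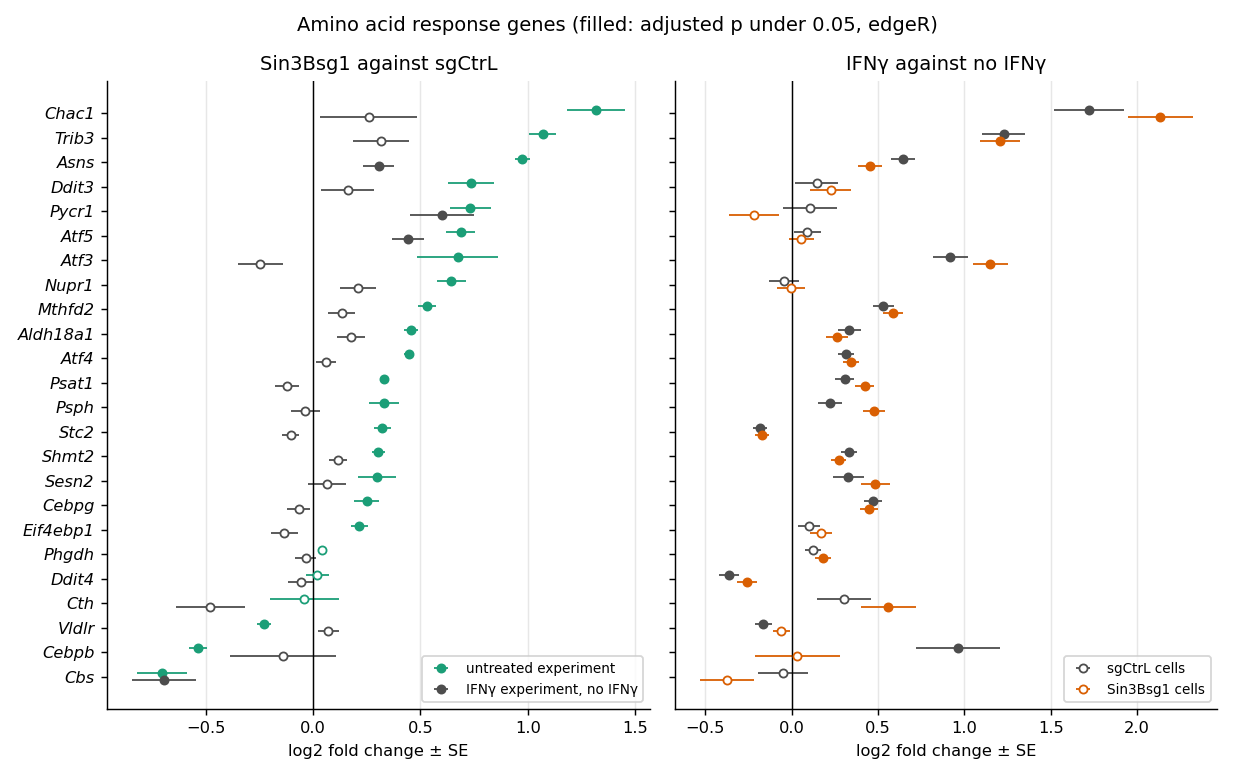
Log2 difference ± SE of 24 amino acid response genes, on the left between Sin3Bsg1 and sgCtrL in untreated cells and without IFNγ, on the right between IFNγ and no IFNγ under each guide; filled points passed an adjusted p of 0.05. In untreated cells 18 genes lie to the right of 0 with a filled point, against 3 in the cells without IFNγ.

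Enzymes that use or make the carried amino acids changed in both directions with IFNγ. Of 19 tested, 6 rose (31.6%, against 15.7% of all genes) and 5 fell (26.3% against 14.5%) in sgCtrL. In Sin3Bsg1 7 rose (36.8% against 16.1%) and 5 fell (26.3% against 12.3%). The tryptophanyl-tRNA synthetase Wars went from means of 89.2 to 677.5 CPM in sgCtrL and 90.8 to 895 in Sin3Bsg1. The tryptophan-degrading Ido1 went from 0.056 to 73.2 and from 0.13 to 44.7 CPM, and the arginine-using Nos2 from 4.69 to 105 and from 7.33 to 142. Ido1 was nearly absent without IFNγ and passed the filter on low counts only through the groups with IFNγ. Its place in both counts of enzymes that rose is therefore a description. The glutamine synthetase Glul fell, from 102 to 58.4 CPM in sgCtrL and 112 to 78.7 in Sin3Bsg1, and so did Gclc, the first enzyme of glutathione synthesis, from 298.5 to 215 and from 321 to 245. In untreated cells 7 of 16 tested enzymes rose with Sin3Bsg1 (43.8% against 15.1% of all genes) and 3 fell (18.8% against 16%). Between the guides without IFNγ, 1 rose and 1 fell, 5.26% each against 7.89% and 9.33%. That count rests on replicate 1 of sgCtrL with IFNγ, without which 5 rose and 2 fell (3 and 1 by DESeq2 with all libraries). With IFNγ present 5 rose and 2 fell, 26.3% and 10.5% against 8.62% and 7.90%, and 7 and 1 did without that library. None passed the interaction with all libraries in edgeR, 1 did in DESeq2 and 2 did in edgeR without that library.

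A list of carriers of amino acids and related compounds outside the 7 families, mostly of mitochondria and lysosomes, was counted in the same way. It also holds the monoamine carrier Slc18a1 and the glutathione carriers Slc25a39 and Slc25a40. Calls of these enter the counts below, which are therefore not counts of amino acid carriers alone. Of the 16 tested, 4 rose (25.0%, against 15.1% of all genes) and 2 fell (12.5% against 16%) with Sin3Bsg1 in untreated cells (2 and 1 by DESeq2). Between the guides 3 fell without IFNγ (18.8% against 9.33%; 5 without replicate 1 of sgCtrL with IFNγ) and 2 fell with IFNγ (12.5% against 7.90%; 3 by DESeq2). Slc16a10, the carrier TAT1 of aromatic amino acids, was lower with Sin3Bsg1 in all of these, at 10.7 against 7.49 CPM in untreated cells (log2 difference -0.52 ± 0.11), 12.7 against 4.80 without IFNγ (-1.41 ± 0.15) and 8.91 against 3.76 with IFNγ (-1.24 ± 0.16). With IFNγ, 2 of the 16 rose and 3 fell in sgCtrL (12.5% and 18.8% against 15.7% and 14.5%), and 2 rose and 1 fell in Sin3Bsg1 (12.5% and 6.25% against 16.1% and 12.3%). The mitochondrial glutamate carrier Slc25a22 rose by 0.51 ± 0.079 and 0.49 ± 0.076, and the lysosomal cystine exporter Ctns fell by -0.39 ± 0.079 and -0.38 ± 0.077.

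Components of amino acid sensing by mTORC1, which reads the amino acids that the carriers deliver, were called at or below the shares of all genes in most comparisons. Of the 27 tested in untreated cells, 4 rose (14.8% against 15.1%) and 3 fell (11.1% against 16%) with Sin3Bsg1 (2 and 3 by DESeq2). Of the 28 tested in the IFNγ experiment, 1 rose and 5 fell with Sin3Bsg1 without IFNγ (3.57% and 17.9%, against 7.89% and 9.33%; 1 and 7 genes without replicate 1 of sgCtrL with IFNγ). With IFNγ present 2 rose and 2 fell (7.14% each, against 8.62% and 7.90%; 4 and 1 genes without that library). IFNγ raised 3 and lowered 3 in sgCtrL (10.7% each, against 15.7% and 14.5%; 2 and 5 genes without that library) and raised 4 and lowered 2 in Sin3Bsg1 (14.3% and 7.14%, against 16.1% and 12.3%; 5 and 3). Sesn1, a stress-induced inhibitor of mTORC1, fell with IFNγ by -0.56 ± 0.059 in sgCtrL and -0.40 ± 0.060 in Sin3Bsg1. Its relative Sesn2 went the other way and was called higher under both guides, and Sesn3 was called lower in sgCtrL alone. Mios and Seh1l were also called higher, and Flcn lower, under both guides.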

How the data were processed

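RNA of 16 KPC1199 libraries was sequenced by the authors. The submitters' processing notes name fastp, HISAT2, StringTie, DESeq2 and mm39, while the study's methods give HISAT2, mm9 and featureCounts, so the build and counter are uncertain. Strand setting and annotation are not given in the sources used here. The deposited values are estimated counts per gene (expected counts, not whole numbers), rounded here before testing. The deposited group mean columns (4 and 2) were left out, and 324 assembled loci without a gene name (0.615% to 0.677% of counts) were dropped from the untreated table. The columns named lacZ were taken as sgCtrL.

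Each table was fitted alone in edgeR 4.0.16 (R 4.3.3): TMM scaling, filterByExpr, a quasi-likelihood test on a mean per group, two-sided, with Benjamini-Hochberg adjustment over all 14589 (untreated) or 14913 (IFNγ) genes and a threshold of 0.05. CPM and TPM were computed from the counts. SE is the log2 difference divided by the square root of F. The fits were tested on simulated data. Alternatives were DESeq2 1.42.0, RLE scaling, no filter, at least 10 counts in every library, a replicate block, leaving out each library and fitting the 2 groups compared alone. Members and lists were chosen with earlier results of these data known. Members were named with values where they passed with an absolute log2 change of at least 0.5 and a mean of at least 1 CPM (at most 12 per comparison), or belonged to a list of carriers of known part in amino acid supply; others are said to be named after their values were seen. Positions and overlaps come from GENCODE on GRCm39. Promoter windows come from RefSeq on GRCm38.p6 and were matched by symbol.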

Additional observations from a re-analysis of the deposited data

Results flagged for a closer look

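Slc7a11 and Slc1a3 were each called in the comparison of Sin3Bsg1 with sgCtrL in both experiments without IFNγ, but in opposite directions. The log2 difference of Slc7a11 was 0.758 in untreated cells, with both Sin3Bsg1 libraries above both controls, and -0.461 in the cells of the IFNγ experiment without IFNγ, with all 3 Sin3Bsg1 libraries below all 3 controls. The log2 difference of Slc1a3 was -0.341 in untreated cells and 0.41 without IFNγ, in each case without overlap of the libraries. The difference between the experiments was not tested, since they lie in separate tables. How many of all genes were called in opposite directions is not given here. The summed fibroblast markers also differed between them, at 117.5 to 118.5 CPM in untreated sgCtrL and 271.9 to 280.5 in sgCtrL without IFNγ. In Sin3Bsg1 they were at 36.1 to 39.2 CPM untreated and 252.3 to 264.0 without IFNγ. Dcn, Lum and Thy1 were at or under the floor in every group of the IFNγ experiment, and only Lum in the untreated groups. The sums therefore rest on the remaining markers. Col1a1 and Pdgfrb were called lower with Sin3Bsg1 in untreated cells and higher without IFNγ, and Pdgfra lower in both. The part of this in the results was not tested.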

How the results depend on the processing

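Of 2285 recomputed values of the named members, 2217 kept their side of the threshold, 24 gained a call and 44 lost one. Not every tested member entered these counts. No called value changed sign, while some values near 0 that were not called did. The count of members called between the guides without IFNγ was 5 and became 10 when only the 2 groups compared were fitted, where calls over all genes went from 2568 to 3996; with IFNγ all genes gave 2464 calls and 1500 when fitted so. Genes passing the interaction went from 17 to 110 with no filter and 32 in DESeq2. Leaving out 1 library gave 8 to 9 members in untreated cells, 3 to 8 without IFNγ, 3 to 5 with IFNγ, 12 to 14 for IFNγ in sgCtrL, 12 to 17 for IFNγ in Sin3Bsg1 and 0 for the interaction. Same-numbered libraries of the IFNγ groups showed little shared deviation (correlations of -0.0341 to 0.115). These values do not show whether same-numbered libraries were prepared together. With a replicate block the counts were 9, 5, 4, 12, 14 and 0 in the same order, and the calls of Slc7a6 (-0.138) and Slc7a6os (0.173) were lost. The members called in both experiments were recounted by DESeq2, with RLE scaling, under both filters and with the block, a check added after seeing the data, and stayed at 1 in the same and 2 in opposite directions. Leaving out single libraries was not part of that recount, and the 1 in the same direction, Slc7a1, lost its call without replicate 1 of sgCtrL without IFNγ (0.19) or replicate 2 of Sin3Bsg1 without IFNγ (0.203). Of the 67 members, 33 had too few counts to be tested in either experiment, and low depth and absent expression cannot be told apart there.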
